A study of Homo sapiens with 18 samples.

Results

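The hypoxia-inducible factor and its targets were followed through 10 genes, taken by name from the 45372 gene symbols in the table. HIF1A encodes the oxygen-regulated subunit. EGLN1 and EGLN3 encode prolyl hydroxylases that mark that subunit for destruction. BNIP3, BNIP3L, VEGFA, P4HA1, P4HA2, KDM3A and ANKRD37 are targets outside glycolysis. RNA was sequenced in 18 libraries of MV4-11 and THP1 (THP-1 in some labels), established AML cell lines with a KMT2A rearrangement. In each line 3 libraries came from DMSO (vehicle) cultures, and 3 each from cultures treated with IACS-010759 (IACS) at 50 nM, sampled at 8 h or at 24 h. IACS is a small-molecule inhibitor of complex I, the first enzyme of the mitochondrial respiratory chain. The 3 libraries of a group came from replicates that the study's methods call independent. The labels give no genetic change made to the cells. Neither the time in DMSO nor the oxygen of the cultures is given in the sources used here.

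In the presence of oxygen, prolyl hydroxylases modify the alpha subunit, the VHL ubiquitin ligase binds it and the proteasome removes it. When oxygen falls, the subunit is stable, pairs with ARNT in the nucleus and raises transcription from hypoxia response elements. Its control lies mostly at the protein, which RNA sequencing does not measure, so the target transcripts are the usual RNA readout of its activity. EGLN1 and EGLN3 are themselves targets, which closes a feedback loop. In myeloid cells the pathway is known for its part in glycolytic metabolism, VEGF secretion and the removal of mitochondria.

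The elements share a core of ACGTG or GCGTG, which was sought on both strands of the RefSeq promoter windows (GRCh38.p14, 250 bases before to 50 bases after the start). The windows were shown only for the 4 members with a match to ACGTG. They are printed on the gene's own strand, with the bases of every core match, on either strand, in capitals.
BNIP3: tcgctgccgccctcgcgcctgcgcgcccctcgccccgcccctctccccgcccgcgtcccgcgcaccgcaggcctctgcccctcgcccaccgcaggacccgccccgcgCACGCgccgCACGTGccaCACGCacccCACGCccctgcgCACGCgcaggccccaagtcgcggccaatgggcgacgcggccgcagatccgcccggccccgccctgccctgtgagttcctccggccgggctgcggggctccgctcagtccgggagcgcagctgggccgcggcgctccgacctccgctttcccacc
ANKRD37: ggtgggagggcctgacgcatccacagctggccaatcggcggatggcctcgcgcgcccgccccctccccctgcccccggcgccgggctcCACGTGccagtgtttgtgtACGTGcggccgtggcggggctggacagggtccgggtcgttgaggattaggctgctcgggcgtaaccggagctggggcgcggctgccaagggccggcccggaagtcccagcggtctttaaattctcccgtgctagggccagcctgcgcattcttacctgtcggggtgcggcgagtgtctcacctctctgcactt
EGLN1: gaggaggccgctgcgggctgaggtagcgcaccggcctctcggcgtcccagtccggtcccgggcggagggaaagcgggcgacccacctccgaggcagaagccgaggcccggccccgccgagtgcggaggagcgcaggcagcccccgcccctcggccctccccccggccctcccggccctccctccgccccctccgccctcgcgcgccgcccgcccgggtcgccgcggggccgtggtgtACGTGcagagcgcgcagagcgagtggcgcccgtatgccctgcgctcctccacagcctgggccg
P4HA1: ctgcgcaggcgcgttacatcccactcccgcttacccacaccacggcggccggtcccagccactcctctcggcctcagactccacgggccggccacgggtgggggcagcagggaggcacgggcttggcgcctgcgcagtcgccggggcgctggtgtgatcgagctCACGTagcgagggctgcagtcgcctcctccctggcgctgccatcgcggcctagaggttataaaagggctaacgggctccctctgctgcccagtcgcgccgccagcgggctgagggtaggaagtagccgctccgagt

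These windows lie at chr10:131981874-131982173 on the minus strand for BNIP3, chr4:185396591-185396890 on the plus strand for ANKRD37, chr1:231422238-231422537 on the minus strand for EGLN1 and chr10:73096817-73097116 on the minus strand for P4HA1. The BNIP3 window held 6 core matches, which began between positions -143 and -104 from the start. The ANKRD37 window held 3, between -162 and -143, while EGLN1 had 1 at -13 and P4HA1 had 1 at -86. A palindrome counts on each strand, so the CACGTG of BNIP3 and of ANKRD37, the E-box letters that other helix-loop-helix factors also read, gives 2 matches. HIF1A and KDM3A each had 1 match, to GCGTG, and P4HA2 and EGLN3 had 0. Of the 10 members, 8 had a window in the table, and VEGFA and BNIP3L had none. Over all 27305 windows, 48.4% held a core, 21.6% held ACGTG, 10.2% held 3 or more matches and 0.927% held 6 or more. A match is a description of the letters and does not show binding.

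Values are the authors' TPM, a share of each library in which reads are divided by gene length, so levels of different genes can be set side by side. Reads recovered from the TPM summed to between 19917841 and 26504541 per library. Of the 10 myeloid markers, 10 in MV4-11 and 9 in THP1 averaged at least 1 TPM (MEIS1 did not in THP1), and of 11 markers of lymphoid, erythroid, epithelial, stromal and endothelial cells only KRT18 in MV4-11 did. The noncoding RNAs RPPH1, RMRP, RN7SK, RN7SL2 and RN7SL1, 5 in all, held 39.6% to 60.1% of a library's TPM. Since TPM has a fixed sum, a larger share of these leaves less for all other genes. Changes were tested by limma on log2(TPM + 1), a scale on which changes of low genes are understated. A gene was called at a Benjamini-Hochberg adjusted p under 0.05 over all genes tested and a change past 1.5-fold (0.585 on the log2 scale).

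VEGFA had the largest log2 fold change from DMSO of the tested members at both times in both lines, and the others stayed inside narrow limits. In MV4-11 its mean was 1.62 (8 h) and 1.59 (24 h) times that of DMSO, and in THP1 the corresponding ratios were 1.53 and 2.05. These are bulk cultures, so fewer cells of a kind and less RNA per cell cannot be told apart. By limma without pairing of replicates, no member passed the test at the stated thresholds in any of the 4 comparisons with DMSO. Of the members tested, 0 of 7 were called in MV4-11 at 8 h, where 0.0148% of all 13542 genes tested were called, and 0 of 7 at 24 h, where 0.0886% were. In THP1 0 of 8 were called at 8 h (0.0144% of 13928 genes) and 0 of 8 at 24 h (0.0431%). At an unadjusted p under 0.05 with the same fold, VEGFA alone was called, in THP1 at 24 h, where 2.2% of all 13928 genes were. With the replicate number as a block VEGFA was called there at the adjusted p (limma adjusted p = 0.0175), with 2.13% of all genes. With so few calls over all genes at the adjusted p without the block, the absence of a call for a member says little, and the intervals below carry more.

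**Figure D1:**
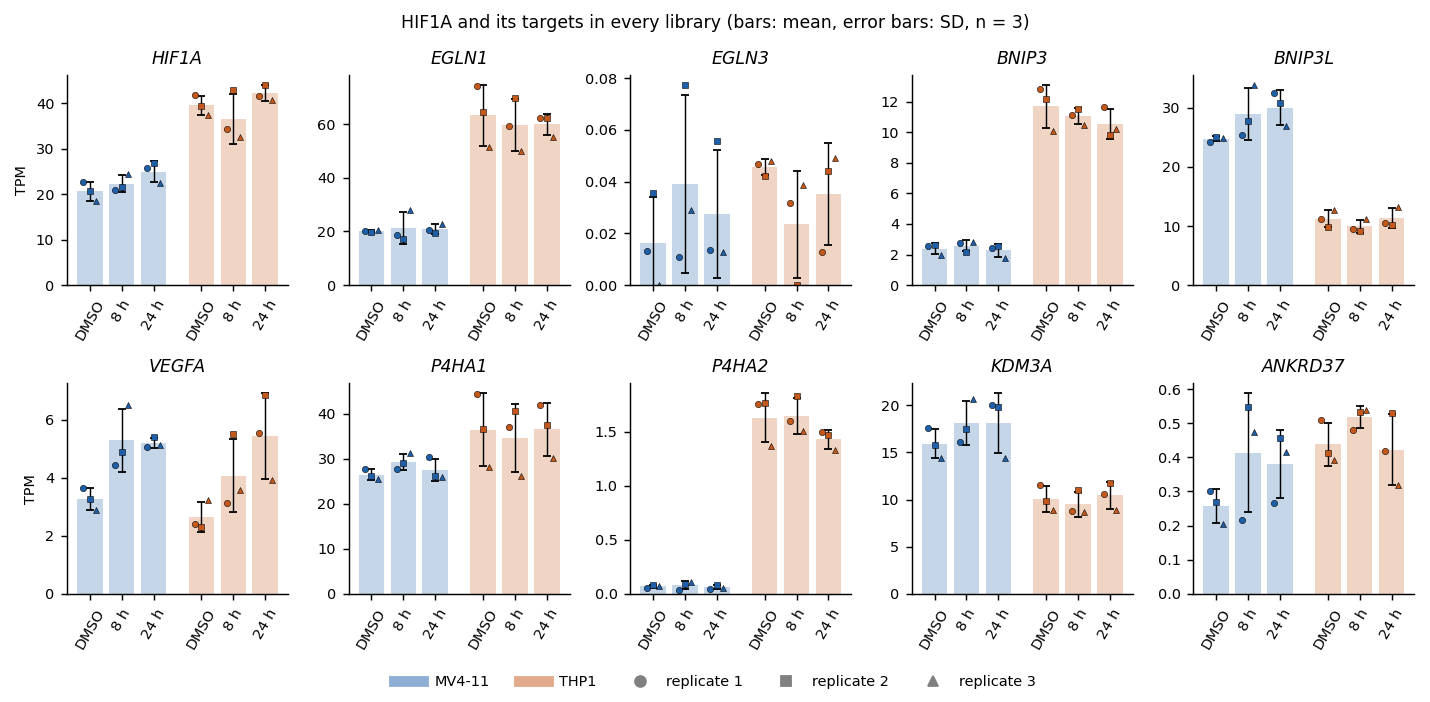
Level (TPM, linear axis from 0) of the 10 genes in each of the 18 libraries. Bars are group means, error bars are SD over 3 libraries (cut at 0 for EGLN3) and symbols mark the replicate number. VEGFA in DMSO sits between 2.91 and 3.64 TPM in MV4-11, under all 6 IACS libraries of that line. Every IACS library lay above every DMSO library there for 7.13% (8 h) and 19.4% (24 h) of all genes tested. The other tested genes change less within a line, and EGLN3 and ANKRD37 rest on few reads.

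HIF1A, on chr14:61695513-61748259 (GRCh38, plus strand), was among the more abundant members in both lines. In MV4-11 it was at 22.8, 20.7 and 18.6 TPM in DMSO, at 20.9, 21.7 and 24.4 TPM after 8 h of IACS and at 25.7, 26.9 and 22.4 TPM after 24 h. In THP1 it was at 41.7, 39.4 and 37.5 TPM in DMSO, at 34.3, 42.9 and 32.7 TPM after 8 h and at 41.7, 44.1 and 40.7 TPM after 24 h. The IACS and DMSO libraries overlapped in every comparison, although the 24 h mean was the highest of the 3 groups in each line. The log2 fold change of HIF1A was 0.11 (95% interval -0.16 to 0.37, limma adjusted p = 0.983) after 8 h in MV4-11 and 0.26 (-0.0015 to 0.53, adjusted p = 0.418) after 24 h. It was -0.12 (-0.42 to 0.18, adjusted p = 0.941) and 0.09 (-0.21 to 0.39, adjusted p = 0.851) in THP1. All 4 intervals lie inside the 1.5-fold limits.

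EGLN1 encodes the prolyl hydroxylase that does most of the oxygen sensing in many cells. It lay at 20.1, 19.8 and 20.5 TPM in MV4-11 DMSO, at 18.5, 17.1 and 28.1 TPM after 8 h and at 20.6, 19.3 and 23.0 TPM after 24 h. In THP1 it lay at 74.2, 64.5 and 51.5 TPM in DMSO, at 59.3, 69.6 and 50.1 TPM after 8 h and at 62.3, 62.2 and 55.4 TPM after 24 h. The groups overlapped throughout, and replicate 3 of THP1 was the lowest of its group each time. The log2 fold changes were 0.04 (8 h) and 0.05 (24 h) in MV4-11, and -0.08 and -0.07 in THP1, with intervals reaching from -0.44 to 0.40 at the widest. The 28.1 TPM belonged to MV4-11 IACS 8 h replicate 3, the library with the smallest share of noncoding RNA, 39.6%. After each line's mean was removed, EGLN1 had a Pearson r of -0.913 with that share over the 18 libraries, against -0.131 for VEGFA. Group means were not removed, so the VEGFA value also carries its difference between IACS and DMSO. These r describe points that share 1 library each and a fixed TPM sum, and the part of the share in the EGLN1 and VEGFA values was not tested.

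**Figure D2:**
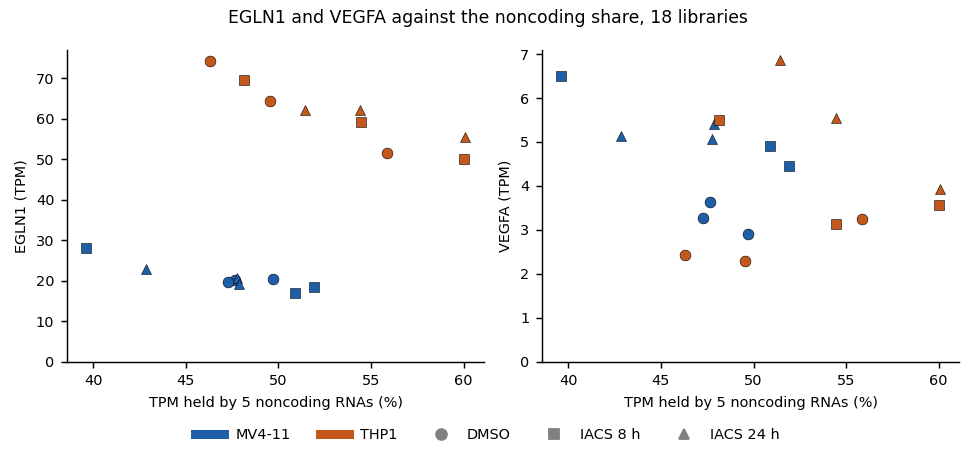
Level of EGLN1 and VEGFA (TPM, from 0) against the percent of a library's TPM held by 5 noncoding RNAs, with 1 symbol per library, colour for the cell line and shape for the group. EGLN1 is lower where the noncoding share is larger within each line, from 74.2 to 50.1 TPM in THP1. VEGFA shows no such order over all libraries of a line, where DMSO and IACS are mixed. Its order within single groups was not tested.

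EGLN3, a prolyl hydroxylase that is strongly hypoxia-inducible in many cell types, was near the limit of detection. It had 0 to 6 reads in the MV4-11 libraries and 0 to 5 in THP1, which corresponds to at most 0.0774 and 0.0490 TPM. In THP1 the 8 h libraries (0.0316, 0, 0.0388 TPM) were all under the DMSO libraries (0.0468, 0.0422, 0.0480 TPM), as were those of 4.06% of all genes tested, but these values rest on so few reads that no difference can be read from them. EGLN3 was not tested in either line, and such a change was not detectable at this depth.

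BNIP3 and BNIP3L encode outer-membrane proteins that recruit the autophagy machinery to mitochondria. BNIP3 was low in MV4-11, at 2.56, 2.60 and 1.97 TPM in DMSO, 2.73, 2.16 and 2.84 TPM after 8 h and 2.44, 2.57 and 1.80 TPM after 24 h. In THP1 it was at 12.8, 12.2 and 10.1 TPM in DMSO, 11.1, 11.5 and 10.5 TPM after 8 h and 11.7, 9.80 and 10.2 TPM after 24 h. IACS and DMSO overlapped in each case, with log2 fold changes of 0.08, -0.05, -0.07 and -0.13 in the order above and intervals within -0.45 and 0.42. BNIP3, whose promoter window above holds the most core matches of the 8, thus stayed inside the 1.5-fold limits on the log2(TPM + 1) scale. At its low level in MV4-11 these limits allow a larger change in TPM.

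BNIP3L was at 24.2, 25 and 24.9 TPM in MV4-11 DMSO, at 25.4, 27.7 and 33.9 TPM after 8 h and at 32.5, 30.8 and 26.9 TPM after 24 h. All 6 IACS libraries of MV4-11 were above all 3 DMSO libraries. Groups were apart in this direction for 7.13% of all genes tested at 8 h and for 19.4% at 24 h, so the lack of overlap is common in this line. The log2 fold change was 0.21 (-0.06 to 0.49, adjusted p = 0.983) at 8 h and 0.27 (-0.0088 to 0.54, adjusted p = 0.431) at 24 h. In THP1 BNIP3L was at 11.3, 9.90 and 12.6 TPM in DMSO, 9.50, 9.15 and 11.3 TPM after 8 h and 10.5, 10.1 and 13.3 TPM after 24 h. These overlapped, with log2 fold changes of -0.16 (-0.51 to 0.18) and 0.0020 (-0.34 to 0.35).

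VEGFA encodes the secreted growth factor that drives the formation of blood vessels, and it is a target both of the hypoxia-inducible factor and of ATF4, the transcription factor of the integrated stress response. In MV4-11 it was at 3.64, 3.27 and 2.91 TPM in DMSO, at 4.46, 4.90 and 6.51 TPM after 8 h and at 5.06, 5.403 and 5.14 TPM after 24 h. All 6 IACS libraries were above all 3 DMSO libraries, which held at 8 h for 7.13% and at 24 h for 19.4% of all genes tested in this line. The log2 fold change was 0.55 (SE 0.143, interval 0.24 to 0.86) at 8 h and 0.54 (SE 0.143, interval 0.23 to 0.85) at 24 h, with limma adjusted p = 0.817 and 0.159. On the log2(TPM + 1) scale both lie just under the 1.5-fold limit, while the ratios of mean TPM were 1.62 and 1.59. The unadjusted limma p was 0.00237 and 0.00261. The 6.51 TPM belonged to 8 h replicate 3, whose noncoding share was 39.6%, and without that library the 8 h change was 0.41.

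In THP1 VEGFA was at 2.42, 2.30 and 3.26 TPM in DMSO, at 3.13, 5.51 and 3.57 TPM after 8 h and at 5.54, 6.87 and 3.93 TPM after 24 h. The 8 h libraries overlapped those in DMSO, and the 24 h libraries were all above them. Over all genes tested in THP1, 0.704% at 8 h and 3.32% at 24 h had every IACS library above every DMSO library. The log2 fold change was 0.45 (SE 0.219, interval -0.03 to 0.93, adjusted p = 0.941) at 8 h and 0.80 (SE 0.219, interval 0.32 to 1.28, adjusted p = 0.414) at 24 h. Replicate 3 stood apart in THP1, with the highest DMSO value and the lowest value after 24 h, and its libraries also had the largest noncoding shares, 55.8% to 60.1%. An exact Kruskal-Wallis permutation test over the 3 groups gave p = 0.050 in MV4-11 and p = 0.0286 in THP1 (n = 3 per group, unadjusted).

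The call for VEGFA depended on how the libraries were scaled and paired. Same-numbered THP1 libraries of DMSO and 24 h had r of 0.146 to 0.324 between their deviations over all genes. The replicate number was also fitted as a block over all THP1 libraries, those of 8 h included. VEGFA was then called in THP1 at 24 h (log2 fold change 0.80, adjusted p = 0.0175). That fit called 2.13% of all genes. VEGFA was also called there after median-of-ratios scaling (0.90, adjusted p = 0.0316, with 0.718% of all genes called). With voom on the recovered reads it was called in THP1 at 24 h (1.15, adjusted p = 0.0162, 1.25% of all genes), in MV4-11 at 8 h (0.62, adjusted p = 0.0364, 0.0665%) and in MV4-11 at 24 h (0.59, adjusted p = 0.0140, 0.961%). It was not called in THP1 at 8 h under any of these. VEGFA is among the transcripts that the study itself picked from these libraries, so its direction here is not independent of that choice.

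**Figure D3:**
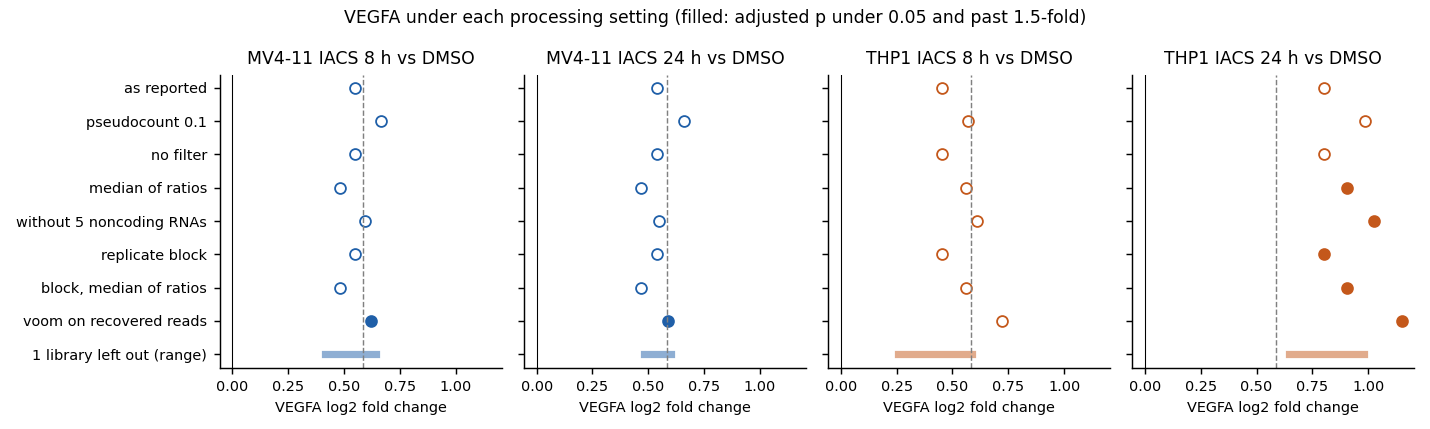
VEGFA log2 fold change against DMSO under each processing setting, with 1 panel per comparison. Filled symbols passed adjusted p under 0.05 and 1.5-fold (dashed line), and the bar gives the range when 1 library of the line is left out. All values are above 0, from 0.26 to 1.15, and 5 of the settings drawn give a call in THP1 at 24 h.

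P4HA1 and P4HA2 encode catalytic subunits of collagen prolyl hydroxylase. P4HA1 was at 27.8, 26.2 and 25.5 TPM in MV4-11 DMSO, 27.8, 29.0 and 31.2 TPM after 8 h and 30.4, 26.2 and 26.0 TPM after 24 h. In THP1 it was at 44.5, 36.6 and 28.3 TPM in DMSO, 37.0, 40.6 and 26.2 TPM after 8 h and 41.9, 37.6 and 30.2 TPM after 24 h. Replicate 3 of THP1 was the lowest of each group, as for EGLN1, and IACS and DMSO overlapped throughout. Log2 fold changes were 0.14, 0.05, -0.07 and 0.01, and the widest interval, in THP1 at 8 h, ran from -0.52 to 0.38.

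P4HA2 had 4 to 9 reads in the MV4-11 libraries, or 0.0382 to 0.113 TPM, and was not tested there. In THP1 it had 115 to 180 reads and lay at 1.76, 1.77 and 1.37 TPM in DMSO, 1.60, 1.83 and 1.51 TPM after 8 h and 1.495, 1.47 and 1.33 TPM after 24 h. Its log2 fold changes in THP1 were 0.01 (-0.32 to 0.34) and -0.11 (-0.44 to 0.22), with overlapping groups. P4HA1 thus exceeded P4HA2 by a ratio of TPM of 275 to 728 in the MV4-11 libraries and of 17.4 to 28.0 in those of THP1.

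KDM3A encodes an oxygen-dependent histone H3 lysine demethylase. It lay at 17.6, 15.8 and 14.4 TPM in MV4-11 DMSO, 16.1, 17.5 and 20.7 TPM after 8 h and 20.1, 19.8 and 14.4 TPM after 24 h. In THP1 it lay at 11.6, 9.80 and 8.88 TPM in DMSO, 8.80, 11.0 and 8.65 TPM after 8 h and 10.6, 11.8 and 8.90 TPM after 24 h. Groups overlapped in every comparison, with log2 fold changes of 0.17, 0.16, -0.08 and 0.04, all with intervals inside the 1.5-fold limits. ANKRD37, a small ankyrin-repeat protein used as a hypoxia marker, had 6 to 17 reads per library and was not tested. It was at 0.301, 0.271 and 0.204 TPM in MV4-11 DMSO against 0.216 to 0.548 TPM after IACS, and at 0.392 to 0.510 TPM in THP1 DMSO against 0.320 to 0.538 TPM, so the groups overlapped.

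**Figure D4:**
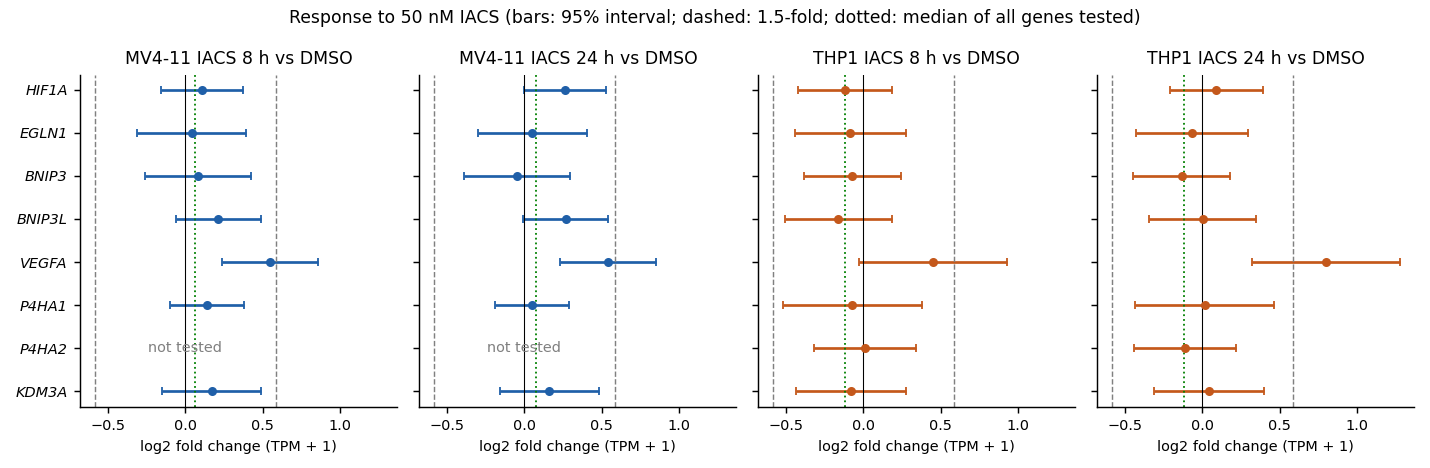
Log2 fold change of log2(TPM + 1) against DMSO for the members tested, with 95% intervals from limma, in 4 panels by cell line and time. Dashed lines mark 1.5-fold and the dotted line marks the median of all genes tested. VEGFA is the highest point in each panel, and its interval is the only one that crosses the 1.5-fold line.

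On the log2(TPM + 1) scale, the interval of every tested member other than VEGFA was inside the 1.5-fold limits in all 4 comparisons. That is 6 of 7 members in MV4-11 and 7 of 8 in THP1. For low genes, such as P4HA2 in THP1 and BNIP3 in MV4-11, these intervals do not bound the change in TPM to 1.5-fold. Over all genes tested, 77.8%, 70% (MV4-11, 8 h and 24 h), 64.2% and 54.5% (THP1) had intervals inside these limits. The median log2 fold change of all genes was 0.06, 0.08, -0.12 and -0.12, and the member medians of 0.14, 0.16, -0.08 and 0.01 were above these by 0.08, 0.09, 0.04 and 0.12. Relative to the median of all genes, VEGFA was higher by 0.49, 0.46, 0.57 and 0.92. Small signs of the other members turned with the scaling. After median-of-ratios scaling EGLN1 changed sign in all 4 comparisons and BNIP3 in both of THP1. HIF1A and KDM3A changed sign in THP1 at 8 h, and P4HA1 both there and after 24 h in MV4-11.

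Between 8 h and 24 h of IACS, no member was called in MV4-11 (0 of 7, with 0% of all genes called) or in THP1 (0 of 8, with 0.00718%). At an unadjusted p under 0.05 with the same fold 0 members were called in both, while 63 and 166 of all genes were. VEGFA was level between the times in MV4-11 (log2 difference of 24 h less 8 h -0.0078, -0.32 to 0.30) and 0.35 higher at 24 h in THP1 (-0.13 to 0.83, adjusted p = 0.998). The difference of the response between the lines, tested as an interaction, gave 0 calls of 7 members at 8 h and 0 of 7 at 24 h, with 0.00796% of 12555 genes called at each time. The THP1 response of VEGFA less that of MV4-11 was -0.10 (-0.66 to 0.47) at 8 h and 0.26 (-0.30 to 0.82) at 24 h, which is too wide to call the lines alike.

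In DMSO, BNIP3, EGLN1, P4HA2 and HIF1A were higher in THP1 and BNIP3L and KDM3A were higher in MV4-11, so 6 of the 8 members tested were called, where 38.3% of 14915 genes were. P4HA2 entered this test only through its THP1 level and had to differ. Each line is a separate culture line with its own history, and the comparison is of these lines, not of a treatment.

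On the log2(TPM + 1) scale BNIP3 had the largest difference, with 11.7 ± 1.43 TPM (SD, n = 3) in THP1 against 2.38 ± 0.352 in MV4-11 (log2 1.91, interval 1.62 to 2.20, adjusted p = 1.29e-09). Its relative BNIP3L went the other way, with 11.3 ± 1.37 against 24.7 ± 0.423 TPM (log2 -1.07, interval -1.36 to -0.78, adjusted p = 2.87e-06). The ratio of BNIP3 to BNIP3L was 0.0670 to 0.107 in the 9 MV4-11 libraries and 0.772 to 1.26 in the 9 of THP1, so the ranges were far apart whatever the treatment. EGLN1 was at 63.4 ± 11.4 against 20.1 ± 0.368 TPM (log2 1.59, interval 1.24 to 1.95, adjusted p = 2.69e-07).

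HIF1A was at 39.6 ± 2.11 TPM in THP1 DMSO and 20.7 ± 2.10 TPM in MV4-11 DMSO (n = 3), a log2 difference of 0.91 (interval 0.65 to 1.16, adjusted p = 5.38e-06). P4HA2 was at 1.63 ± 0.225 against 0.0703 ± 0.0126 TPM, the largest ratio of means among the members (23.2, against 4.92 for BNIP3), on 4 to 9 reads per library in MV4-11. KDM3A was lower in THP1, at 10.1 ± 1.38 against 15.9 ± 1.57 TPM (log2 -0.61, interval -0.94 to -0.29, adjusted p = 0.00282), near the fold limit, and the call was lost without the 5 noncoding RNAs (-0.57), without MV4-11 DMSO replicate 1 (-0.55) and without THP1 DMSO replicate 3 (-0.53). P4HA1 was 0.42 higher in THP1 (interval 0.06 to 0.78, adjusted p = 0.0459), short of the fold limit, which it passed without THP1 DMSO replicate 3 (0.59). VEGFA was at 2.66 ± 0.520 against 3.27 ± 0.366 TPM (log2 -0.23, interval -0.63 to 0.17, adjusted p = 0.329). EGLN3 and ANKRD37 were too low to test.

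**Figure D5:**
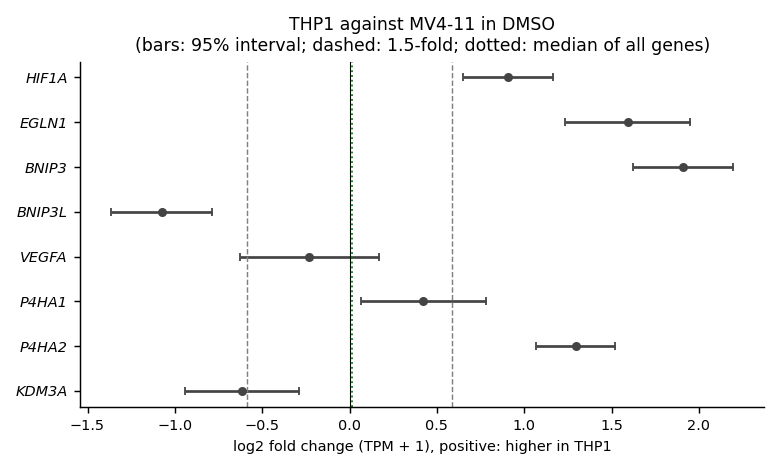
Log2 fold change of log2(TPM + 1) of THP1 against MV4-11 in DMSO, with 95% intervals from limma. Dashed lines mark 1.5-fold. BNIP3 (1.91), EGLN1, P4HA2 and HIF1A lie to the right of the upper limit, and BNIP3L (-1.07) and KDM3A (-0.61) to the left of the lower one.

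By level, MV4-11 in DMSO ranked P4HA1 (26.5 TPM), BNIP3L (24.7), HIF1A (20.7), EGLN1 (20.1), KDM3A (15.9), VEGFA (3.27), BNIP3 (2.38), ANKRD37 (0.259), P4HA2 (0.0703) and EGLN3 (0.0162). Among neighbours in that order only HIF1A and EGLN1 overlapped over the 3 libraries. In THP1 the order was EGLN1 (63.4 TPM), HIF1A (39.6), P4HA1 (36.4), BNIP3 (11.7), BNIP3L (11.3), KDM3A (10.1), VEGFA (2.66), P4HA2 (1.63), ANKRD37 (0.438) and EGLN3 (0.0457). There HIF1A overlapped with P4HA1, BNIP3 with BNIP3L, and BNIP3L with KDM3A, and no other neighbours overlapped.

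Across the 18 libraries, after removing each line's mean, the 5 genes most like HIF1A among 8843 compared were NTAN1 (Pearson r of log2(TPM + 1) 0.937), ZBTB34 (0.928), LINC01410 (0.928), GAB3 (0.925) and SRGAP2C (0.924). The median r with HIF1A over all these genes was 0.446, and its source was not tested. Group means were not removed, so r also carries differences between IACS and DMSO. SRGAP2C has near-identical copies, so its reads may be split among them. Of the members, KDM3A was nearest to HIF1A (r = 0.833), followed by VEGFA (0.58), P4HA1 (0.525), EGLN1 (0.436), BNIP3L (0.368) and BNIP3 (0.294). BNIP3 and BNIP3L had an r of 0.003 with each other. These values describe 18 libraries and carry no test.

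For the other subunits and regulators of the factor no call was made with IACS. Of 20 listed genes (HIF1A and EGLN1 included) 17 were tested in each line, and 0 were called in the 4 comparisons with DMSO by limma, by limma at an unadjusted p under 0.05 with the same fold, and by voom. The ends of this list in THP1 at 24 h were SIAH2, a ubiquitin ligase that targets prolyl hydroxylases (0.23, adjusted p = 0.685), and RBX1, the RING subunit of the VHL ligase (-0.35, adjusted p = 0.597). Between the lines in DMSO 5 of the 17 were called higher in THP1 and 1 lower, a share near the 38.3% of all genes. They included EPAS1, the alpha subunit of the second factor (12.6 ± 3.66 against 1.09 ± 0.0834 TPM, log2 2.67, adjusted p = 6.14e-10). ARNT, the partner of the alpha subunits, was at 57.4 ± 3.298 against 28.2 ± 3.12 TPM (log2 1.00, adjusted p = 1.38e-06). CITED2, which competes with the factor for its coactivators, was 1.41 higher (adjusted p = 2.84e-07), and ELOB, a subunit of the VHL ligase, was 0.60 lower (adjusted p = 0.00504).

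Of 34 further non-glycolytic targets, 18 were tested in MV4-11 and 21 in THP1. None of those in MV4-11 was called at 8 h or 24 h and none in THP1 at 8 h. TFRC, the transferrin receptor, was called lower in THP1 at 24 h. It was at 97.7, 85.3 and 81.5 TPM in THP1 DMSO, at 69.7, 79.5 and 71.0 TPM after 8 h and at 45.8, 42.8 and 42.8 TPM after 24 h, and both IACS groups lay wholly under DMSO, as for 4.06% (8 h) and 10.2% (24 h) of all genes tested. Its log2 fold change was -0.99 at 24 h (SE 0.128, adjusted p = 0.0235), and -0.26 at 8 h (adjusted p = 0.941). The call at 24 h was lost without THP1 DMSO replicate 1 (-0.92, adjusted p = 0.113) or replicate 2 (-1.01, adjusted p = 0.149), IACS 8 h replicate 1 (-0.99, adjusted p = 0.0734) or IACS 24 h replicate 1 (-1.02, adjusted p = 0.114). In MV4-11 TFRC was at 111 to 134 TPM in DMSO, 75.6 to 97.7 TPM after 8 h and 90.3 to 95.4 TPM after 24 h, again wholly under DMSO (-0.57 and -0.41, adjusted p = 0.426 and 0.241), as for 1.65% and 5.26% of all genes. With median-of-ratios scaling, without the 5 noncoding RNAs and by voom TFRC was also called lower in MV4-11 at 8 h. By voom PPFIA4, a liprin scaffold protein, was called higher in MV4-11 at 24 h, and with the replicate block CXCR4, a chemokine receptor, was called lower in THP1 at 24 h (-0.65 and adjusted p = 0.188 without the block).

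DDIT4, an inhibitor of mTORC1 signalling, was the highest of these further targets in MV4-11 at 8 h and in THP1 at both times. In MV4-11 it was at 5.61, 5.77 and 6.72 TPM in DMSO, 10.1, 10.2 and 13.4 TPM after 8 h and 8.04, 9.15 and 9.24 TPM after 24 h (log2 0.79 and 0.48, adjusted p = 0.122 and 0.185). The IACS libraries lay wholly above DMSO, as for 7.13% (8 h) and 19.4% (24 h) of all genes tested. At 8 h DDIT4 was called higher there without the 5 noncoding RNAs and with the replicate block, and not with median-of-ratios scaling or by voom. In THP1 it was at 4.14, 6.85 and 11.4 TPM in DMSO, 8.37, 10.02 and 9.34 TPM after 8 h and 9.90, 11.1 and 10.8 TPM after 24 h. The THP1 groups overlapped through replicate 3 of DMSO (log2 0.36 and 0.55, adjusted p = 0.941 and 0.578). NDUFA4L2, a mitochondrial protein known as a hypoxia target, was tested only in THP1, with log2 fold changes of 0.33 and 0.34 (adjusted p = 0.941 and 0.649). In MV4-11 it lay at 0.173 to 0.403 TPM in DMSO and at 0.749 to 1.17 TPM over the 6 IACS libraries. STC2, a secreted glycoprotein, was too low to test. In MV4-11 it lay at 0 to 0.0250 TPM in DMSO and at 0.0460 to 0.285 TPM after IACS. In THP1 it lay at 0.0844 to 0.113 TPM in DMSO and at 0.236 to 0.655 TPM after IACS. Thus NDUFA4L2 in MV4-11 and STC2 in both lines had every IACS library above every DMSO library. So did 7.13% (8 h) and 19.4% (24 h) of all genes tested in MV4-11, and 0.704% and 3.32% in THP1. These values near the floor were not tested. DDIT4, NDUFA4L2 and STC2, like VEGFA, are in the study's own list from these libraries. DDIT4 and STC2 are also known targets of ATF4.

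Glycolytic targets, 20 of 21 tested in each line, gave 0 calls in the 4 comparisons by limma. Their lowest gene was LDHA, which makes lactate from pyruvate, in every comparison (-0.29, -0.52, -0.23 and -0.66, adjusted p from 0.235 to 0.983). The highest in 3 of the 4 was PFKFB4, a regulator of phosphofructokinase, with 0.23 and 0.55 in MV4-11 and 0.64 in THP1 at 24 h (adjusted p = 0.983, 0.127 and 0.345). Their median log2 fold change was -0.03, -0.07, -0.05 and -0.23, against 0.06, 0.08, -0.12 and -0.12 for all genes. With an unadjusted p in place of the adjusted one, and also with the replicate block, PFKFB4 was called higher and LDHA lower in THP1 at 24 h. By voom PFKFB4 was called higher at 24 h in both lines, SLC2A3, a glucose transporter, higher in THP1 and LDHA lower in MV4-11.

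The gene families around single members gave 0 calls with IACS by limma, and at an unadjusted p or by voom only VEGFA was called among them. Of 8 mitophagy receptors, 7 were tested in MV4-11 and 6 in THP1, where FUNDC1, a receptor of the outer membrane, was listed at 0 in all 9 libraries against 18.4 to 25.8 TPM in those of MV4-11. In DMSO 1 of 7 was called higher in THP1, BNIP3, and 5 lower, among them PINK1, the kinase of the ubiquitin-dependent route (-1.41, adjusted p = 6.54e-07). FUNDC1 is another of the 5, and it had to differ, since it entered the test only through MV4-11. Between the lines in DMSO 38.3% of all 14915 genes tested were called, the share to set beside each such count here. Of 10 VEGF ligands and receptors 3 were tested, VEGFA, VEGFB and NRP1, and VEGFB was at 15.2 to 25.1 TPM in MV4-11 and 17.7 to 30.6 TPM in THP1. The receptor genes FLT1 and KDR did not exceed 0.0855 TPM in any library. Of 7 collagen hydroxylases 4 and 6 were tested. In DMSO 3 of 6, P4HA2, PLOD2 and PLOD3, were called higher in THP1, PLOD2 being listed at 0 in all 9 MV4-11 libraries. P4HA2 and PLOD2 entered that test only through their THP1 levels and had to differ, which leaves PLOD3 (1.63, adjusted p = 2.45e-07). Of 17 JmjC demethylases 15 and 14 were tested, and in DMSO 2 of 15 were called higher in THP1 and 5 lower. KDM6A, among the 5, entered the test only through MV4-11 and had to differ. KDM4A was the highest in THP1 against MV4-11 in DMSO (2.59, adjusted p = 1.20e-11).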

How the data were processed

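RNA sequencing covered 18 libraries of MV4-11 and THP1. Per the methods and labels, the authors trimmed paired-end reads, aligned them to GRCh38 (hg38) and obtained TPM per gene with CLC Genomics Workbench v20. The annotation and the use of strand are not given in the sources used here. The deposited TPM table has 45372 symbols, all 18 columns were used and 0 were left out.

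The 10 members and all gene lists were chosen with earlier results of these data known. From the TPM, log2(TPM + 1) was tested by limma (v3.58.1 in R v4.3.3, eBayes with a variance trend) separately in MV4-11 and THP1 (9 libraries each, genes averaging 1 TPM or more), and in all 18 libraries for differences between lines. The fit was tested on simulated data. Groups came from the sample labels. Whole reads (tolerance 0.02) were recovered from the TPM for 14899 of 14917 genes (99.9%), with exon lengths from GENCODE v44, which also gave the coordinates of HIF1A, or from a search. They gave 19917841 to 26504541 reads per library (median 22175222), and were used for depth and voom only. EGLN3 and ANKRD37, and P4HA2 in MV4-11, had under 20 reads in each library, so counting error weighs heavily on their values.

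Named beyond the members were genes called in a comparison, the ends of a list, genes in the study's own list and the 5 genes most like HIF1A. FLT1, KDR and the genes called by another fit only (SLC2A3) were added after their values were seen. The alternatives tried were another pseudocount (0.1), a stricter filter (10 TPM) or none, scaling by the median of ratios, leaving out the 5 noncoding RNAs, a block for the replicate number, a fit with no trend in the variance, a fit of the 6 libraries compared, unadjusted p, exact Kruskal-Wallis tests, no fold threshold and leaving out each library. Voom on recovered reads was chosen after seeing the data. Same-numbered libraries were counted as paired where every correlation of their deviations from the group means was over 0.1. This held for THP1 DMSO and 24 h (r = 0.146, 0.157 and 0.324 over genes) and for THP1 8 h and 24 h (0.183, 0.277 and 0.357). In MV4-11 it held only for 8 h and 24 h. The main fit did not use this pairing, and the block was an alternative to it. The block itself was fitted over all libraries of each line, so also across pairs under that limit. Their lowest r was 0.034 (MV4-11 DMSO and 8 h), 0.066 (MV4-11 DMSO and 24 h) and 0.044 (THP1 DMSO and 8 h). Libraries of unlike number were not set beside these. The labels do not say what a number shares.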

Additional observations from a re-analysis of the deposited data

How the results depend on the processing

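The count of members called was 0 in the comparisons with DMSO, between the times and for the difference between the lines under all alternatives run, apart from 1 member, VEGFA, in these cases. It was called in THP1 at 24 h with median-of-ratios scaling, without the 5 noncoding RNAs (log2 fold change 1.02), with the replicate block, with both the block and that scaling, at an unadjusted p and by voom. It also passed there by an unadjusted exact Kruskal-Wallis p joined to the limma fold change. That test spans the 3 groups of the line and does not compare 24 h with DMSO alone. An exact permutation test of 3 against 3 libraries gave VEGFA p = 0.1 there, the lowest it can give. By voom it was also called in MV4-11 at 8 h and 24 h. The block changed no other member's call. Leaving out each library kept these counts at 0 (0 to 0), and the count between the DMSO groups at 5 to 6, where KDM3A was lost without MV4-11 DMSO replicate 1 (-0.55) and without THP1 DMSO replicate 3 (-0.53), when P4HA1 was gained (0.59).

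VEGFA stayed above 0 without each library, at 0.41 to 0.64 and 0.48 to 0.60 in MV4-11 and 0.26 to 0.59 and 0.64 to 0.98 in THP1. In MV4-11 at 24 h its limma adjusted p was 0.0344 without MV4-11 IACS 8 h replicate 3, at 0.54. It was 0.0241 with median-of-ratios scaling (0.47), 0.0245 with that scaling and the block (0.47) and 0.033 without the 5 noncoding RNAs (0.55). Each of these changes fell short of the 1.5-fold limit on the log2(TPM + 1) scale, so no call was made.

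Signs of uncalled members turned as follows. With median-of-ratios scaling, alike with the block, they were EGLN1 -0.0319 and -0.0315 in MV4-11 (8 h, 24 h), P4HA1 -0.0322 (MV4-11, 24 h), EGLN1 0.0654, KDM3A 0.0573, P4HA1 0.0742, BNIP3 0.0682 and HIF1A 0.0294 (THP1, 8 h), and EGLN1 0.0747 and BNIP3 0.0002 (THP1, 24 h). Without the noncoding RNAs they were EGLN1 -0.0015 and P4HA1 -0.0017 (MV4-11, 24 h), EGLN1 0.0294, KDM3A 0.0249, P4HA1 0.0388 and BNIP3 0.0352 (THP1, 8 h), and EGLN1 0.0789 and BNIP3 0.0029 (THP1, 24 h). By voom they were EGLN1 -0.021 (MV4-11, 8 h), EGLN1 -0.0361 and P4HA1 -0.0364 (MV4-11, 24 h), EGLN1 0.0518, KDM3A 0.0486, P4HA1 0.0621, BNIP3 0.0617 and HIF1A 0.0158 (THP1, 8 h), and EGLN1 0.0702 (THP1, 24 h). Leaving out 1 library gave ranges through 0 for EGLN1 (-0.17 to 0.17) and BNIP3 (-0.0083 to 0.17) in MV4-11 at 8 h, and for EGLN1 (-0.0148 to 0.11), P4HA1 (-0.0201 to 0.0902) and BNIP3 (-0.14 to 0.0584) at 24 h. In THP1 they were EGLN1 (-0.22 to 0.0367), KDM3A (-0.18 to 0.0155), P4HA2 (-0.0626 to 0.0482) and P4HA1 (-0.24 to 0.11) at 8 h, and EGLN1 (-0.20 to 0.0541), KDM3A (-0.0411 to 0.14), BNIP3L (-0.11 to 0.0814) and P4HA1 (-0.15 to 0.17) at 24 h. The cause was not tested.

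Over all genes, the count called in MV4-11 at 24 h was 12, against 79 with median-of-ratios scaling (54 higher), 119 without the noncoding RNAs, 100 with the replicate block and 130 by voom. In THP1 at 24 h it was 6 (1 higher), against 100 (52 higher), 93, 296 and 174. Leaving out 1 library of the line gave 0 to 137 in MV4-11, with 0 without IACS 24 h replicate 1 or any DMSO replicate, 1 without IACS 24 h replicate 2, 6 without IACS 8 h replicate 2, and 37, 137 and 102 without IACS 8 h replicate 1, IACS 8 h replicate 3 and IACS 24 h replicate 3. In THP1 it gave 1 to 16, with 1 without DMSO replicate 2 or replicate 1 of either IACS time, 2 without DMSO replicate 1, 4 without DMSO replicate 3, and 11 and 16 without IACS 24 h replicates 3 and 2. P4HA2 was not tested between the lines at a minimum of 10 TPM.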
